A study of Mus musculus with 12 samples.

Results

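Agmo, the genes of ether lipid synthesis and the genes of tetrahydrobiopterin synthesis were examined in glycerol-injured mouse muscle with and without Pparg deleted in fibro-adipogenic progenitors (FAPs). The set has 8 members, Agmo, Agps, Gnpat, Far1, Gch1, Pts, Spr and Qdpr, taken by gene name out of 54532 genes in the count table. All 8 were among the 16393 genes with enough counts to be tested. Agmo was selected on its lower counts in these knockout libraries against these controls, so its values are given as a description with no test. The other 7 entered as its pathway partners and were tested in a fit over the whole table.

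The knockout group was 6 libraries of the genotype labelled FAP no ppary, in which Pparg was conditionally deleted in FAPs, the mesenchymal cells of muscle that can form adipocytes. The reference was 6 libraries labelled Wildtype. Every library was made from whole lysate of the tibialis anterior, a muscle of the lower hind leg, taken 5 days after glycerol was injected, and every sample carries the label 129svlmJ, given under the heading cell line, which reads as a mouse strain but is not called one. The labels give neither the Cre driver nor the floxed allele, age or sex, and leave it unsaid whether each library is a separate animal, so p-values measure the spread between these samples, which may be technical.

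AGMO, alkylglycerol monooxygenase, cleaves the ether bond of alkylglycerols and related lysolipids, and it needs tetrahydrobiopterin as its cofactor. Ether lipids are begun in the peroxisome, where GNPAT adds an acyl chain to dihydroxyacetone phosphate and AGPS exchanges it for a fatty alcohol made by FAR1. Tetrahydrobiopterin is made from GTP by GCH1, the rate-limiting enzyme, followed by PTS and SPR, and QDPR regenerates it after use.

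The RefSeq promoter windows of all 8 members were found on GRCm38.p6, each 300 bases long with 250 bases before the annotated start and 50 after it. The 4 windows printed here are those of Agmo, whose window had the fewest CG pairs of the 8, of Gnpat, whose window had the most, and of Gch1 and Pts, the 2 tested members with the smallest p. They lie at chr12:37241389-37241688 on the plus strand for Agmo, chr8:124862783-124863082 on the plus strand for Gnpat, chr14:47189364-47189663 on the minus strand for Gch1 and chr9:50528607-50528906 on the minus strand for Pts. For Pts the RefSeq start lay 68 bases inside the start of the gene in the count table. Capitals mark CG pairs, and each sequence runs 5′ to 3′ on the strand of the gene.
Agmo: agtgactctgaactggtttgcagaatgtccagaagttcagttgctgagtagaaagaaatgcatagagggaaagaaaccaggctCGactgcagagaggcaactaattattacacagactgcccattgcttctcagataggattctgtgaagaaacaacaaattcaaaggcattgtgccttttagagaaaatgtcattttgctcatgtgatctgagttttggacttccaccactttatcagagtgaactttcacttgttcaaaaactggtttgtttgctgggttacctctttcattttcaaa
Gnpat: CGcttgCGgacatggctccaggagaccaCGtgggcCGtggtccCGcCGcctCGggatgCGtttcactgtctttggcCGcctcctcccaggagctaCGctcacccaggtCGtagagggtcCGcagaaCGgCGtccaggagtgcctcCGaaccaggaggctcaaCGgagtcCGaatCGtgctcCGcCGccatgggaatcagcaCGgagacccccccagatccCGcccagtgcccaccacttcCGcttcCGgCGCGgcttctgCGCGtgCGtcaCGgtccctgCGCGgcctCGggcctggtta
Gch1: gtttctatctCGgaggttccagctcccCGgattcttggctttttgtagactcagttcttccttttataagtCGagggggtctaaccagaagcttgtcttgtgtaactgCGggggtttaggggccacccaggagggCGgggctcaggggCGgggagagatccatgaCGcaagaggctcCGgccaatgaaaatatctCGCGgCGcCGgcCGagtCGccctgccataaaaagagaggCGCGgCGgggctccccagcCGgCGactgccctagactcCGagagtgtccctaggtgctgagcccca
Pts: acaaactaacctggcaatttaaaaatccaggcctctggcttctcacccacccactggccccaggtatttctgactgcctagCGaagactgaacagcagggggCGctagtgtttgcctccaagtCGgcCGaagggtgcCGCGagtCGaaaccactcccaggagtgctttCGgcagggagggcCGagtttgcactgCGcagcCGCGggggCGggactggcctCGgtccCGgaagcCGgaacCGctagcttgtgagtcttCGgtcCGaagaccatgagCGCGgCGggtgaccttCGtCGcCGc

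The Agmo window held 1 CG pair and was 39.7% G and C, against a median of 7 CG pairs and 52.7% over 32851 promoter windows, and 14.1% of all windows held no more CG pairs. The other 7 windows held between 16 pairs in Spr and 33 in Gnpat, with 20 in Gch1, 23 in Qdpr, 25 in Pts, 28 in Far1 and 32 in Agps. Agmo was thus alone among the members in having a CG-poor window, a property of the genome and not of these libraries. Motifs were searched on both strands. AGGTCA, the hexamer bound by nuclear receptors, was found in the Pts window, once on the other strand, and in 16.3% of all windows. Its direct repeat with 1 base between, known as DR1 and bound by PPAR receptors with their partner RXR, was in none of the 8 windows and in 0.0396% of all windows. TATAAA was found once in the Gch1 window, on the other strand, and in 13.6% of all windows. CCAAT occurred in the windows of Agps, Far1, Gch1 and Qdpr and in 37.4% of all windows. These matches describe the letters of the windows only.

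Library totals ranged from 15716056 to 29790720 counts, and mitochondrially encoded protein genes made up between 2.66% and 10.8% of them. Pparg checks the labels: it was between 15.6 and 43.1 CPM, the counts scaled to library size after TMM normalization, in knockout libraries, against 45.0 to 67.4 CPM in control libraries. All 8 muscle fibre markers were present, and they summed to between 17421 and 59093 CPM in knockout libraries and between 20721 and 47189 CPM in control libraries. At an adjusted p below 0.05 in edgeR's quasi-likelihood test with Benjamini-Hochberg adjustment, 131 of 16393 genes differed, 123 lower (0.75%) and 8 higher (0.0488%) in knockout. That number lay between 6 and 214 when 1 library was left out. In 4 pairs of libraries, knockout replicates 3 and 4, knockout replicates 5 and 6, control replicates 2 and 3, and control replicates 4 and 5, 16 genes with separate high and low states were in the same states, and other pairs shared between 25% and 75% of them. Whether each pair came from 1 animal is not given. When the counts of each pair were summed, leaving 4 against 4, no gene passed the threshold in edgeR. Of 17508 genes tested in that fit, 1015 had an unadjusted p below 0.05.

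Agmo was lower in every knockout library than in every control library. Agmo (ENSMUSG00000050103, chr12:37241641-37582202, plus strand) was at 7.66, 8.02, 6.18, 6.66, 6.93 and 7.19 CPM in knockout replicates 1 to 6. In control replicates 1 to 6 it was at 9.62, 12.7, 11.8, 13.03, 10.6 and 10.8 CPM. The groups did not overlap: the highest knockout library, replicate 2, lay under the lowest control library, replicate 1. The means were 7.11 ± 0.67 CPM in knockout and 11.4 ± 1.30 CPM in control (SD, n = 6 each), a log2 fold change of -0.69 (SE 0.10), or 62.1% of the control level. Of all tested genes, 1.27% had every knockout library below every control library, and since Agmo was chosen for this contrast nothing is read from its place among them. These values rest on 97 to 286 counts per library. No exon of Agmo shared bases with another gene of the GENCODE M21 annotation, and no 50-base word of its longest transcript occurred in another gene.

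**Figure D1:**
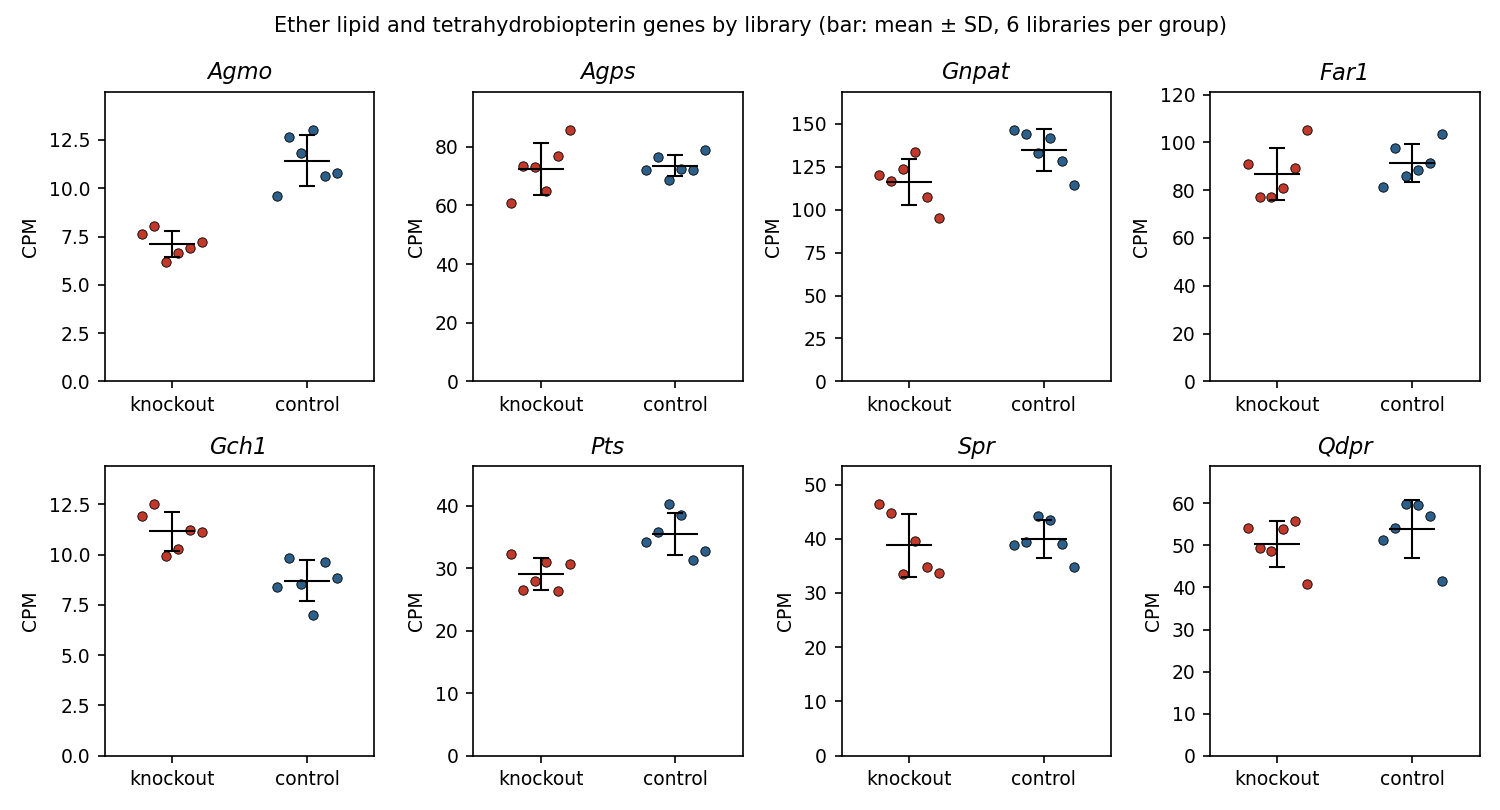
Level in CPM of the 8 members in each library, 1 panel per gene with its own axis from 0, knockout left of control; points are libraries and bars are the mean with its SD (n = 6 each). Agmo and Gch1 are the members whose groups do not overlap, Agmo with all knockout libraries below the controls and Gch1 with all above.

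Within the knockout group Agmo varied far less than adipocyte RNA. The 10 adipocyte markers, which include Adipoq (the hormone adiponectin), Plin1 (a coat protein of lipid droplets) and Lipe (hormone-sensitive lipase), summed to 673, 616, 350, 398, 76.0 and 149 CPM in knockout replicates 1 to 6. In control replicates 1 to 6 they summed to 1169, 1560, 1184, 1367, 938 and 832 CPM. The highest knockout library was thus 8.86 times the lowest in adipocyte marker RNA, while for Agmo the same ratio was 1.30. Among control libraries the ratios were 1.88 for the markers and 1.35 for Agmo. Knockout replicate 5, with the least adipocyte marker RNA, had 6.93 CPM of Agmo. Knockout replicates 1 and 2, with the most, had 7.66 and 8.02 CPM, the highest of the group. The lowest Agmo of the group, 6.18 CPM, was in replicate 3, at 350 CPM of marker RNA. Fewer adipocytes and less RNA per adipocyte cannot be told apart in whole muscle.

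The log2 ratio of Agmo to the adipocyte marker sum was -5.38 ± 1.19 in knockout and -6.66 ± 0.26 in control (SD, n = 6 each), so Agmo was higher relative to adipocyte RNA in knockout, by 1.28 on the log2 scale. In knockout libraries the ratio ran between -6.46 in replicate 1 and -3.46 in replicate 5, and in control libraries between -6.94 and -6.27. Knockout replicate 1 lay inside the control range and the other 5 knockout libraries lay above all controls. As the ratio contains Agmo, it is given with no test. Of the adipocyte list, 10 of 10 markers had a negative log2 fold change with a median of -1.78. Adrb3 and Lgals12 passed the edgeR threshold, both lower in knockout, where 0.75% of all tested genes did.

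**Figure D2:**
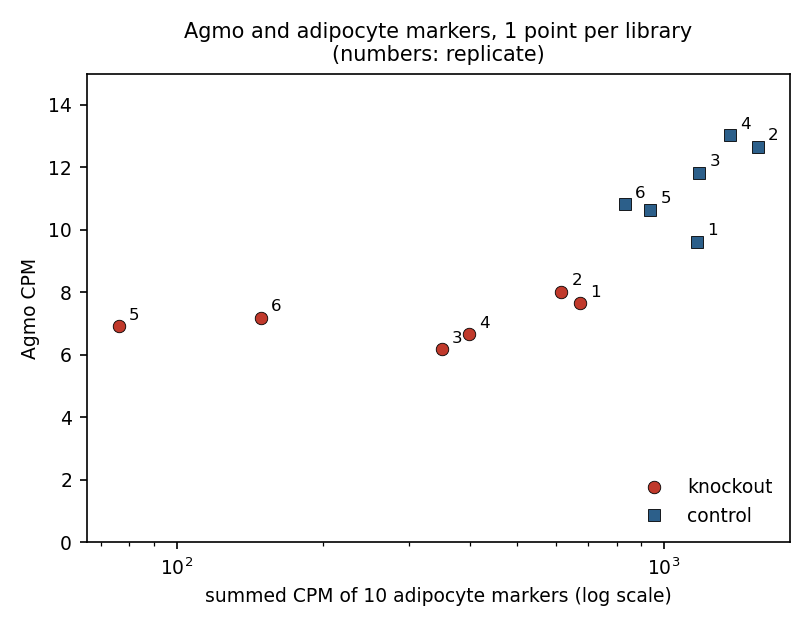
Agmo in CPM (vertical axis) against the summed CPM of the 10 adipocyte markers (horizontal axis, log scale), 1 point per library. The knockout libraries spread between 76.0 and 673 CPM of marker RNA at 6.18 to 8.02 CPM of Agmo, and the control libraries lie between 832 and 1560 CPM of marker RNA at 9.62 to 13.03 CPM of Agmo.

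Other cell types of the muscle were measured beside Agmo by their whole marker lists. The 8 FAP markers summed to 6512 to 11239 CPM in knockout libraries and 8441 to 11713 CPM in control libraries. Of these markers 7 of 8 had a negative log2 fold change, with a median of -0.35, and none passed in edgeR. At an unadjusted p below 0.05 in edgeR 4 were lower in knockout, where 5.68% of all tested genes were. The 10 macrophage markers summed to 5143 to 8835 CPM in knockout and 6836 to 8254 CPM in control libraries, with a median log2 fold change of 0.03. The 7 T and NK cell markers all had a positive log2 fold change with a median of 0.99. They summed to 16.3 to 37.1 CPM in knockout and 7.71 to 23.1 CPM in control libraries. None of them passed in edgeR, and 4 were higher at an unadjusted p below 0.05, where 3.79% of all tested genes were. For the other lists the median log2 fold change was -0.08 for 6 endothelial, 0.13 for 8 muscle fibre, -0.19 for 5 tested mast cell, -0.07 for 4 tested neutrophil and -0.05 for 3 tested Schwann cell markers. Of the skin markers only Krt10 was tested, at -0.12. Krt14 had no count in any knockout library and at most 1 count in any control library. The part of these cell types in the level of Agmo was not tested.

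Across the 12 libraries, after each group was centred on its mean, the genes whose log2 CPM most resembled that of Agmo were Casp12, Bnip3l, Csad, Btd, Aph1a, Papd4, Atp6v0b and Nectin4. Their Pearson correlations with Agmo ran between 0.89 and 0.93 among 13473 genes ranked, with Spearman values between 0.83 and 0.91. Without the 2 libraries whose Agmo lay farthest from its group mean, the Pearson correlations were between 0.83 and 0.92. Being the top of so many genes over 12 libraries that also share depth and RNA quality, these values are a description with no p. Casp12 is a caspase of the endoplasmic reticulum, Bnip3l a mitophagy receptor, Csad an enzyme of taurine synthesis and Btd the enzyme that frees biotin. Of the 8, Csad passed the threshold, with a log2 fold change of -0.48 and an edgeR adjusted p of 0.0199. Of all tested genes 0.75% passed lower in knockout, and these 8 were picked for their likeness to Agmo. The adipocyte markers correlated with Agmo at 0.18 to 0.43 in the same measure and the FAP markers at 0.06 to 0.61. Among the other members the highest was Spr at 0.62 and the lowest Agps at -0.06.

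None of the 7 other members passed the threshold in edgeR, against 0.799% of all tested genes, 0.75% lower and 0.0488% higher. At an unadjusted p below 0.05 there were 3 of 7, Gnpat and Pts lower and Gch1 higher in knockout, against 9.47% of all tested genes, 5.68% lower and 3.79% higher. By DESeq2 and by limma-voom 1 of the 7 passed, Gch1 in DESeq2, where 2.43% of all tested genes passed, and Pts in limma-voom, where 2.37% did. Their median log2 fold change was -0.08, with 6 negative and 1 positive, where the median of all tested genes was 0.00 and 50.5% were negative. Gch1 was the 1 member of the 7 whose groups did not overlap, against 1.43% of all tested genes.

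**Figure D3:**
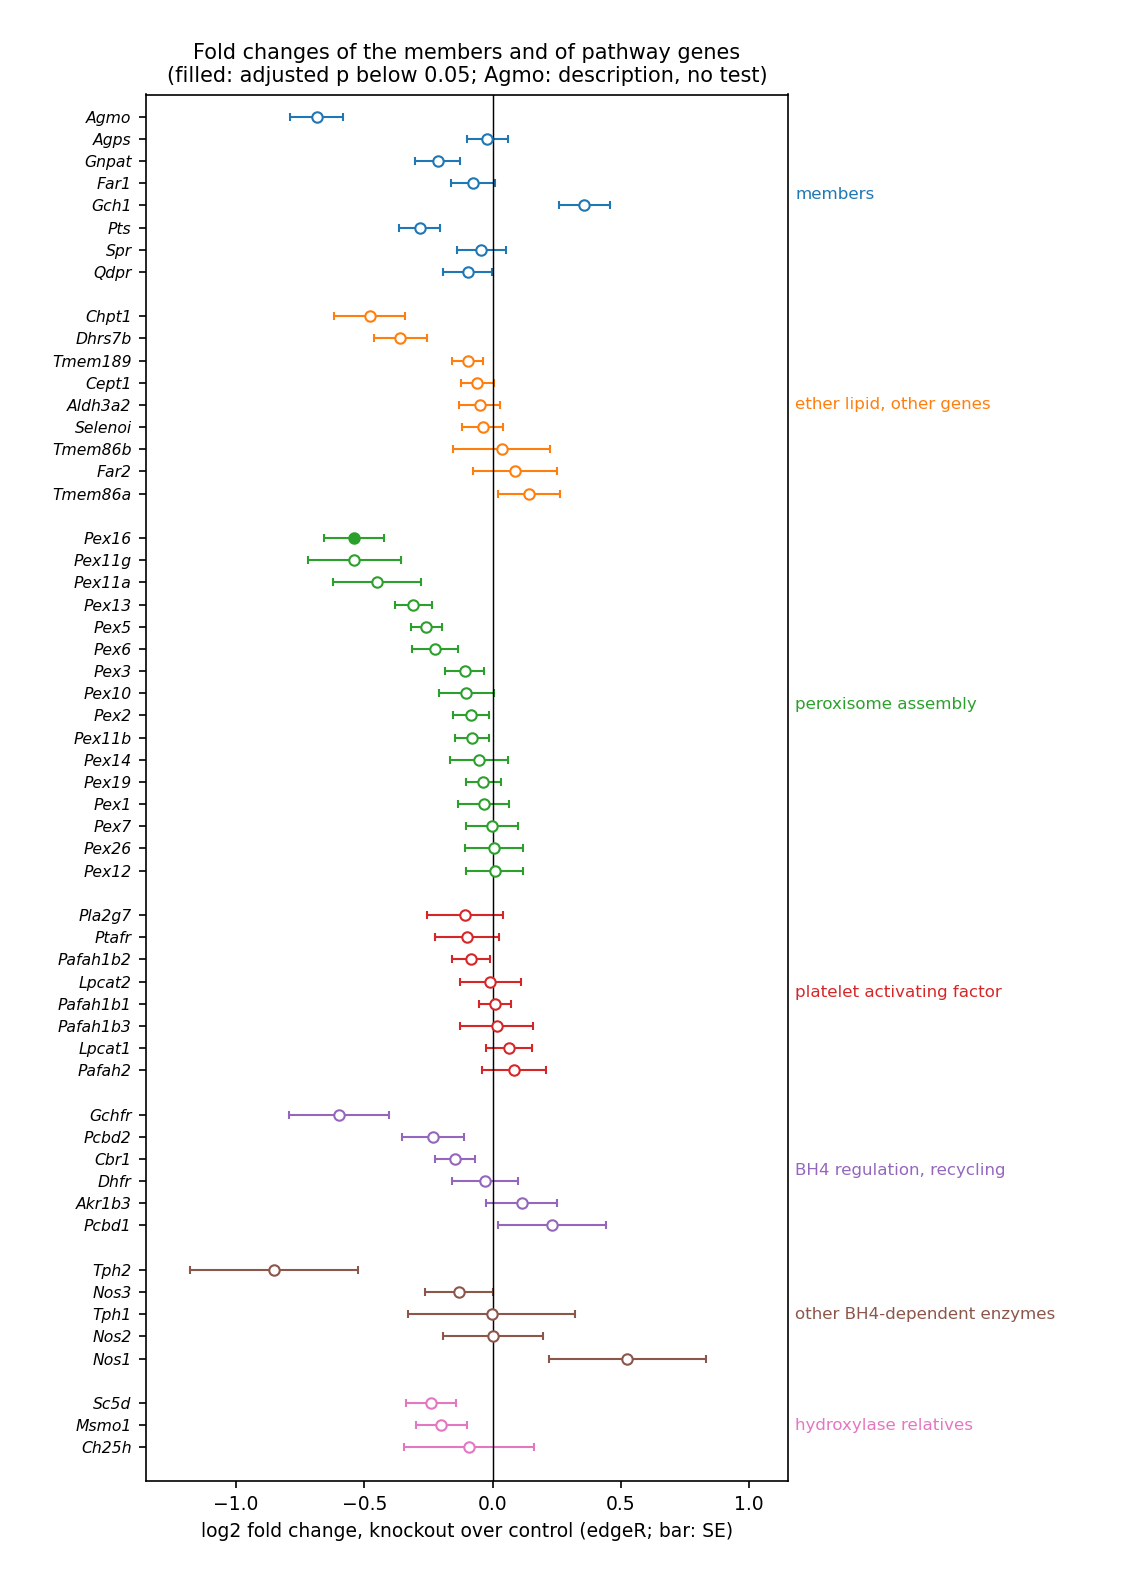
Log2 fold change of knockout over control for the 8 members and the other pathway genes, by list, with bars of 1 standard error (BH4 stands for tetrahydrobiopterin). A filled point, Pex16, is past the adjusted threshold, and Agmo is drawn with no test. Agmo lies at -0.69, Gch1 at 0.36 and the other members between -0.28 and -0.02.

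None of the 3 genes that begin ether lipid synthesis passed the threshold. Gnpat (ENSMUSG00000031985, chr8:124863033-124890057, plus strand), the acyltransferase of the first step, was at 95.1 to 134 CPM in knockout libraries with a median of 118, and at 115 to 147 CPM in control libraries with a median of 137. The ranges overlapped, with 2 of 6 knockout libraries below all controls. The means were 116 ± 13.4 CPM in knockout and 135 ± 12.04 CPM in control (SD, n = 6 each), a log2 fold change of -0.21 (SE 0.09, edgeR adjusted p = 0.427). Gnpat shares 88 exon bases with 2810004N23Rik on the opposite strand, which had 13950 counts in all against 31794 for Gnpat, and how strand was treated in counting is not known, so part of its count may be its neighbour's.

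Agps (ENSMUSG00000042410, chr2:75832177-75931350, plus strand), which replaces the acyl chain with the ether-linked alcohol, was at 72.5 ± 8.87 CPM in knockout and 73.5 ± 3.60 CPM in control (SD, n = 6 each). Its range of 60.7 to 85.8 CPM in knockout libraries enclosed the 68.8 to 78.9 CPM of the controls. The log2 fold change was -0.02 (SE 0.08, edgeR adjusted p = 0.989), and it took the opposite sign, 0.03, without knockout replicates 1 and 2. Far1 (ENSMUSG00000030759, chr7:113513834-113571511, plus strand), the reductase that supplies the alcohol, was at 77.0 to 105 CPM in knockout and 81.5 to 103 CPM in control libraries, with a log2 fold change of -0.08 (SE 0.09, edgeR adjusted p = 0.913). Neither gene was separated between the groups.

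The balance between the 2 peroxisomal enzymes was taken as 1 ratio per library and compared between the groups. The log2 ratio of Agps to Gnpat in FPKM, which divides counts by gene length, was -2.06 ± 0.33 in knockout and -2.25 ± 0.17 in control (SD, n = 6 each), a difference of 0.19 (two-sided exact permutation p = 0.245, also 0.245 after adjustment over the 2 ratios tested). Only 2 of 6 knockout libraries lay above all controls and 1 lay below all of them. Replicate 6 had the lowest Gnpat and the highest Agps of its group in both groups, at 95.1 and 85.8 CPM in knockout and at 115 and 78.9 CPM in control. These 2 libraries also had the highest TMM factors, 1.14 in knockout and 1.10 in control, and mitochondrial shares of 2.66% and 3.92%. With the mitochondrial share as a covariate the log2 fold change of Gnpat was -0.20 (edgeR adjusted p = 0.340).

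Of the 9 other genes of ether lipid synthesis and breakdown, none passed the threshold in edgeR or DESeq2, 2 passed in limma-voom, and 2 had an unadjusted p below 0.05 in edgeR, both lower in knockout. Of all tested genes 2.37% passed in limma-voom, and 5.68% were lower at an unadjusted p below 0.05 in edgeR. Their median log2 fold change was -0.05, with 6 negative and 3 positive. Chpt1, a cholinephosphotransferase that completes choline glycerophospholipids, was at 68.2 ± 12.9 CPM in knockout and 94.97 ± 16.2 CPM in control (SD, n = 6 each), with a log2 fold change of -0.48 (SE 0.14, edgeR adjusted p = 0.160). Dhrs7b, the peroxisomal reductase that follows AGPS, was at 30.3 ± 3.01 CPM in knockout and 38.8 ± 5.60 CPM in control (SD, n = 6 each), with a log2 fold change of -0.36 (SE 0.10, edgeR adjusted p = 0.144). Both ranges overlapped, with 3 of 6 knockout libraries below all controls for Chpt1 and 2 of 6 for Dhrs7b. Chpt1 passed in edgeR with the replicate number as a block (adjusted p = 0.0171), where 236 of 16393 genes passed. With a library left out its edgeR adjusted p lay between 0.0581 and 0.348. Aldh3a2, which oxidizes the fatty aldehyde that AGMO releases, had a log2 fold change of -0.05 (SE 0.08, edgeR adjusted p = 0.939). Tmem189, the desaturase that makes the vinyl ether of plasmalogens, was at -0.10 (SE 0.06) and Tmem86a, a lysoplasmalogenase, at 0.14 (SE 0.12), with edgeR adjusted p of 0.710 and 0.849. Tmem189 shares 28.3% of its 50-base words with the readthrough gene Gm20431 and 312 exon bases with Cebpb on the opposite strand.

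In the peroxisome, 1 of 16 assembly and import genes passed the threshold in edgeR, lower in knockout, where 0.75% of all tested genes did. Pex16, which helps build the peroxisomal membrane, was at 25.0, 26.3, 23.4, 21.8, 20.9 and 16.5 CPM in knockout replicates 1 to 6, against 33.1, 38.5, 33.1, 34.5, 30.0 and 25.7 CPM in control replicates 1 to 6. Knockout replicate 2 reached above control replicate 6, and the other 5 knockout libraries lay below all controls. Pex16 fell by 0.54 on the log2 scale (SE 0.12, edgeR adjusted p = 0.0495), a call at the edge of the threshold. It was kept when control replicate 6, knockout replicate 1 or knockout replicate 2 was left out and lost without any of the other 9 libraries, with adjusted p between 0.0309 and 0.124, and the adjusted p was 0.508 with paired libraries summed.

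The median log2 fold change over the 16 peroxisome genes was -0.09, with 14 negative and 2 positive, and 6 had an unadjusted p below 0.05, all lower in knockout, where 5.68% of all tested genes did. DESeq2 and limma-voom each passed 3 of the 16, against 2.43% and 2.37% of all tested genes. Pex5, the receptor that carries proteins into the peroxisome, was at 45.4 to 53.9 CPM in knockout and 57.9 to 66.5 CPM in control libraries, with a log2 fold change of -0.26 (SE 0.06, edgeR adjusted p = 0.0738). Pex13, part of the docking complex for that receptor, was at 33.6 to 39.7 CPM in knockout and 40.0 to 52.8 CPM in control libraries, with a log2 fold change of -0.31 (SE 0.07, edgeR adjusted p = 0.0759). For both, every knockout library lay below every control library, a pattern that 1.27% of all tested genes had, and neither passed the threshold. Pex11g, a factor of peroxisome division, was at -0.54 (SE 0.18, edgeR adjusted p = 0.265) on 31 to 101 counts per library.

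Platelet activating factor is an ether lipid, and none of the 8 genes for its synthesis, breakdown and sensing passed in edgeR, DESeq2 or limma-voom, nor did any have an unadjusted p below 0.05 in these tests. Their median log2 fold change was 0.00, with 4 negative and 4 positive. The receptor Ptafr was at 74.0 ± 16.3 CPM in knockout and 79.3 ± 4.69 CPM in control (SD, n = 6 each). Pla2g7, the secreted acetylhydrolase that inactivates the mediator, was at 95.8 ± 19.3 CPM in knockout and 103 ± 20.7 CPM in control. Lpcat1, an acetyltransferase that makes it, and Pafah1b2, an acetylhydrolase subunit, had log2 fold changes of 0.06 (SE 0.09) and -0.08 (SE 0.07). The edgeR adjusted p of these 4 genes were between 0.851 and 0.931.

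In tetrahydrobiopterin synthesis the first enzyme was higher and the next lower in knockout, neither past the threshold. Gch1 (ENSMUSG00000037580, chr14:47153895-47189413, minus strand) was at 11.9, 12.5, 9.91, 10.3, 11.2 and 11.1 CPM in knockout replicates 1 to 6. In control replicates 1 to 6 it was at 8.40, 9.81, 8.52, 6.99, 9.65 and 8.83 CPM. All 6 knockout libraries lay above all 6 controls, a pattern that 0.159% of all tested genes had, with the lowest knockout library at 9.91 CPM and the highest control library at 9.81 CPM. The means were 11.2 ± 0.97 CPM in knockout and 8.70 ± 1.02 CPM in control (SD, n = 6 each), a 1.28-fold level and a log2 fold change of 0.36 (SE 0.10, edgeR adjusted p = 0.139). Over the alternatives its adjusted p lay between 0.0267 and 0.449, the lowest in DESeq2. The gene rests on 125 to 300 counts per library.

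Pts (ENSMUSG00000032067, chr9:50521617-50528724, minus strand), the synthase of the next step, was at 32.3, 26.4, 27.9, 31.0, 26.3 and 30.7 CPM in knockout replicates 1 to 6. In control replicates 1 to 6 it was at 34.1, 35.8, 40.2, 38.4, 31.3 and 32.7 CPM. Knockout replicate 1 lay above control replicate 5, and the other 5 knockout libraries lay below all controls. The means were 29.1 ± 2.54 CPM in knockout and 35.4 ± 3.42 CPM in control (SD, n = 6 each), a log2 fold change of -0.28 (SE 0.08, edgeR adjusted p = 0.139). Its adjusted p lay between 0.0499 and 0.589 over the alternatives, the lowest in limma-voom.

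The genes of the last step of synthesis and of the recycling step overlapped between the groups. Spr (ENSMUSG00000033735, chr6:85130176-85137766, minus strand), the sepiapterin reductase, was at 33.4 to 46.4 CPM in knockout libraries with a median of 37.2, and at 34.8 to 44.3 CPM in control libraries with a median of 39.2. Its log2 fold change was -0.04 (SE 0.10, edgeR adjusted p = 0.967), and it was 0.04 with paired libraries summed. Qdpr (ENSMUSG00000015806, chr5:45434021-45450236, minus strand), the reductase that regenerates the cofactor, was at 40.8 to 55.7 CPM in knockout libraries with a median of 51.7, and at 41.6 to 59.9 CPM in control libraries with a median of 55.6. The log2 fold change of Qdpr was -0.10 (SE 0.10, edgeR adjusted p = 0.882).

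Gchfr encodes the feedback protein that binds GCH1 and adjusts its activity. It was at 1.84 to 3.64 CPM in knockout and 3.40 to 5.76 CPM in control libraries, with 4 of 6 knockout libraries below all controls and a log2 fold change of -0.60 (SE 0.19, edgeR adjusted p = 0.240). It is a gene of low count, with 42 to 125 counts per library. The log2 ratio of Gch1 to Gchfr in FPKM was -0.78, -1.24, -1.70, -1.72, -1.22 and -0.66 in knockout replicates 1 to 6. In control replicates 1 to 6 it was -1.94, -2.43, -2.18, -2.60, -1.99 and -1.83.

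All 6 knockout libraries lay above all 6 controls in this ratio. The means were -1.22 ± 0.45 in knockout and -2.16 ± 0.30 in control (SD, n = 6 each), a difference of 0.94 or a 1.92-fold ratio (two-sided exact permutation p = 0.00216, the smallest that 6 against 6 allows, and 0.00433 after adjustment over the 2 ratios tested). With the ratio averaged within paired libraries, leaving 4 against 4, the difference was 0.93 (exact permutation p = 0.0286, the smallest that 4 against 4 allows). After adjustment over the 2 ratios that p was 0.0571, which does not pass the threshold of 0.05. The ratio is one of RNA and says nothing of the amount of either protein. Part of it, the level of Gch1, is a value already described above. Both genes come from lists chosen with earlier results of these data known. The p is therefore not independent of that choice and describes the separation of these libraries only.

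**Figure D4:**
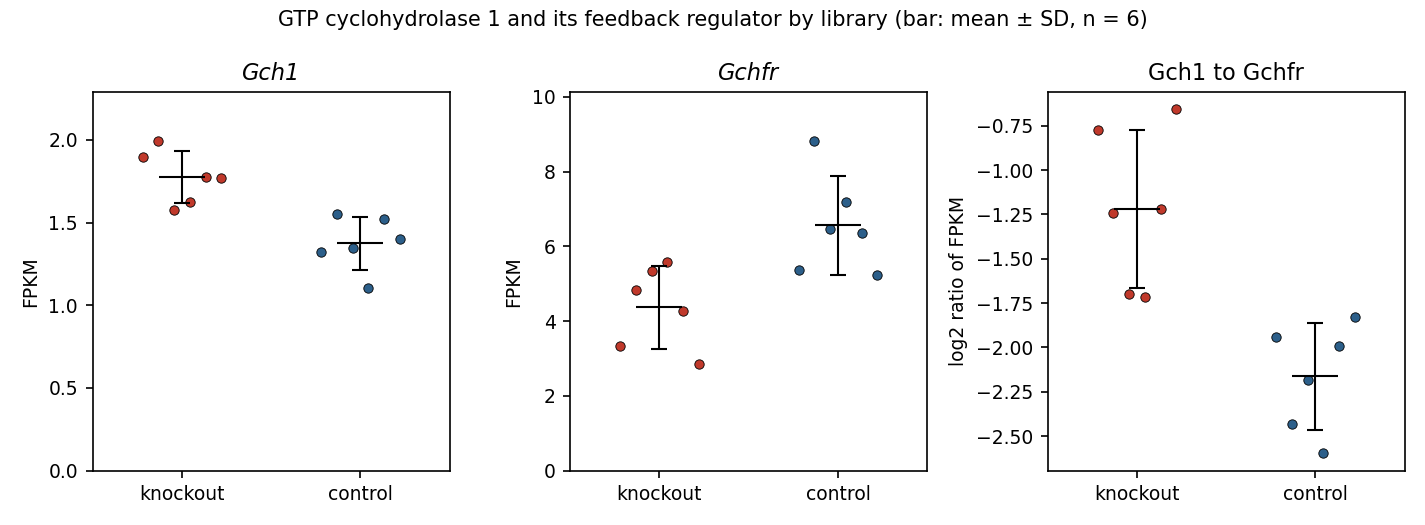
Gch1 and Gchfr in FPKM and the log2 ratio of Gch1 to Gchfr, 1 panel each, with points for libraries and bars for the mean and SD (n = 6 each), knockout left of control. The knockout ratios lie between -1.72 and -0.66 and the control ratios between -2.60 and -1.83.

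The 6 other genes of tetrahydrobiopterin regulation and recycling, Gchfr among them, had none past the threshold in edgeR, DESeq2 or limma-voom. At an unadjusted p below 0.05 in edgeR 1, Gchfr, was lower in knockout, where 5.68% of all tested genes were. The median log2 fold change of the 6 was -0.09, with 4 negative and 2 positive. Pcbd1, the dehydratase that acts before QDPR in recycling, was at 22.7 ± 7.97 CPM in knockout and 19.4 ± 3.57 CPM in control (SD, n = 6 each), and its relative Pcbd2 at 14.0 ± 1.48 CPM in knockout and 16.4 ± 3.16 CPM in control. Cbr1, a carbonyl reductase that can stand in for SPR in part, had a log2 fold change of -0.15 (SE 0.08). For these 3 genes the edgeR adjusted p lay between 0.598 and 0.863.

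Of 7 other enzymes that use tetrahydrobiopterin, 5 were tested and none passed in edgeR, DESeq2 or limma-voom. At an unadjusted p below 0.05 in edgeR 1, Tph2, was lower in knockout, where 5.68% of all tested genes were. The neuronal nitric oxide synthase Nos1, which muscle fibres also make, was at 7.76 ± 2.73 CPM in knockout and 5.35 ± 2.26 CPM in control (SD, n = 6 each), a log2 fold change of 0.53 (SE 0.31, edgeR adjusted p = 0.672). With the mitochondrial share as a covariate Nos1 was at 0.73 and passed (edgeR adjusted p = 0.0327), where 183 of 16393 genes passed. That was 1 of 26 alternatives, and Nos1 passed in 0 of the 12 fits with a library left out. Nos3, the endothelial form, had a log2 fold change of -0.13 (SE 0.13, edgeR adjusted p = 0.891), and it shares 294 exon bases with Atg9b on the opposite strand. Nos2, the inducible form, was at 3.21 ± 0.94 CPM in knockout and 3.21 ± 0.58 CPM in control, a log2 fold change of 0.00 (SE 0.20, edgeR adjusted p = 0.999). The tryptophan hydroxylases were barely present, Tph2 at 6 to 32 counts per library with a log2 fold change of -0.85 (SE 0.33, edgeR adjusted p = 0.371). Th, the tyrosine hydroxylase, had no count in any library, which allows up to 3 counts or 0.0991 to 0.206 CPM per library, for counting error only.

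AGMO belongs to the fatty acid hydroxylase superfamily, and of its relatives Sc5d, Msmo1 and Ch25h were tested. None passed in edgeR, DESeq2 or limma-voom. Sc5d was lower in knockout at an unadjusted p below 0.05 in edgeR, where 5.68% of all tested genes were. Sc5d, a desaturase of cholesterol synthesis, was at 13.4 ± 1.65 CPM in knockout and 15.8 ± 1.54 CPM in control (SD, n = 6 each), with a log2 fold change of -0.24 (SE 0.10, edgeR adjusted p = 0.404). Msmo1, an oxidase of the same pathway, was at 14.97 ± 2.20 CPM in knockout and 17.2 ± 1.28 CPM in control, with a log2 fold change of -0.20 (SE 0.10, edgeR adjusted p = 0.567). In each of these 2 genes 5 of 6 knockout libraries lay below all controls. Ch25h, the cholesterol 25-hydroxylase, was at -0.09 (SE 0.25, edgeR adjusted p = 0.973) on 18 to 70 counts per library. Fa2h was under the count filter, and Faxdc2 was not analysed here.

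By level per gene length, Agmo and Gch1 were the lowest of the 8 members and stood in opposite order in the 2 groups. In knockout the deposited FPKM averaged 32.2 ± 3.66 for Gnpat, 28.0 ± 2.97 for Qdpr, 10.9 ± 1.62 for Spr, 10.7 ± 1.36 for Far1, 7.64 ± 0.95 for Agps, 4.74 ± 0.42 for Pts, 1.77 ± 0.16 for Gch1 and 1.10 ± 0.11 for Agmo (SD, n = 6). In control it averaged 37.1 ± 3.20 for Gnpat, 29.79 ± 3.76 for Qdpr, 11.2 ± 1.02 for Far1, 11.1 ± 0.95 for Spr, 7.70 ± 0.39 for Agps, 5.73 ± 0.55 for Pts, 1.77 ± 0.20 for Agmo and 1.37 ± 0.16 for Gch1 (SD, n = 6). Gch1 was above Agmo in 6 of 6 knockout libraries, and Agmo was above Gch1 in 6 of 6 control libraries. As this crossing contains the value that chose Agmo, it is given with no test. Spr and Far1 could not be ordered in either group, each being higher in 3 of 6 libraries. Gnpat was above Qdpr in 5 of 6 knockout and 6 of 6 control libraries, with overlapping ranges. The other neighbours kept their order in every library of the group, but the ranges of Agmo and Gch1 overlapped in control.

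**Figure D5:**
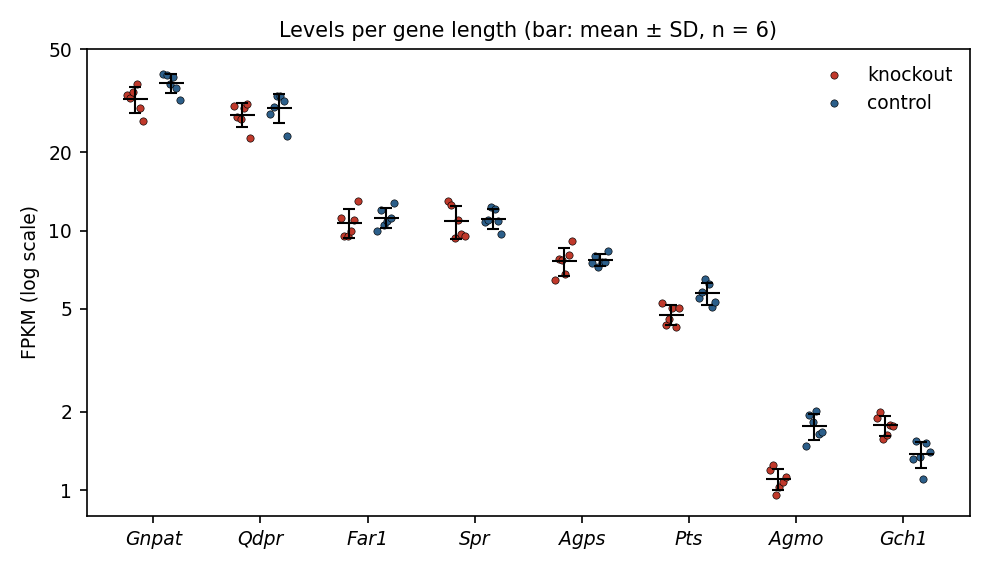
FPKM of the 8 members (log axis), knockout left of control for each gene, with points for libraries and bars for the mean and SD (n = 6 each). Gnpat and Qdpr are the most abundant per length, and Agmo and Gch1 the least, with Agmo at 1.10 and Gch1 at 1.77 FPKM in knockout and Agmo at 1.77 and Gch1 at 1.37 FPKM in control.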

How the data were processed

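RNA from 12 muscle samples was sequenced, 6 per group. The gene counts deposited by the authors are whole numbers with no normalization, and the FPKM deposited by the authors are proportional to count over gene length, with a denominator of 1.00 to 1.02 times the TMM library size. Per the submitters' processing notes, the tools were featureCounts, HISAT2 2.0.5 and fastp, and the build was GRCm38 (mm10). How strand was treated in counting is not stated.

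Genes were kept by filterByExpr (minimum count 10, minimum total 15), scaled by TMM and tested with robust quasi-likelihood F tests in edgeR 4.0.16 (R 4.3.3), Benjamini-Hochberg adjusted over all 16393 genes at a threshold of 0.05. A standard error is the absolute log2 fold change over the root of its F statistic. Log2 CPM used a prior count of 2 and FPKM ratios a pseudocount of 0.1, so a ratio understates differences of low genes. Ratios were compared by two-sided exact permutation over all assignments to groups of 6. On simulated counts for this comparison (16230 genes), the fit called 68 of 100 genes made to change 1.5-fold and 90 of 100 made to change 2-fold. There were 7 false calls in 165. The changed genes were drawn above a minimum mean CPM and the simulated libraries were independent. The simulation thus leaves out changes in genes of low count and any likeness of paired libraries. The gene table lists coordinates on GRCm38, and overlaps were taken from GENCODE M21. Promoters came from RefSeq (GRCm38.p6).

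The members and gene lists were chosen with earlier results of these data known. Of 127 genes on the lists, 126 were found and 117 tested. Named genes are the members, Pparg, list genes past the threshold, up to 4 genes of each pathway list with the smallest p, and the 8 genes most correlated with Agmo among those whose mean log2 CPM reached 1. Aldh3a2, Fa2h, Th and genes that complete a count were named outside this rule, after their values were seen.

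In each of 30 same-group pairs the counts differed beyond sampling noise (chi-square per degree of freedom between 12.96 and 159.5), so none was counted as a duplicate. Alternatives covered scaling, DESeq2 1.42.0, limma-voom with quality weights (limma 3.58.1), the count filter, FPKM with limma, the replicate block, 1 surrogate variable (sva 3.50.0), the mitochondrial share, paired libraries summed and each library left out.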

Additional observations from a re-analysis of the deposited data

Results flagged for a closer look

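Of 70 groups of 6 values tested (35 quantities, each in both groups), 1 held a library far from the rest, which is fewer than the 1 in 20 that chance gives. It was Tph2 log2 CPM in the knockout libraries, where the gap between replicate 6 and its nearest neighbour took a share of 0.626 of the group's range against a critical value of 0.625. Knockout replicate 6 was at -1.48 and the other 5 knockout libraries lay between -0.68 and -0.20. That library had 6 counts of the gene.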

How the results depend on the processing

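The number of genes past the threshold, 131, was 399 in DESeq2 (83.2% of them lower in knockout, against 93.9%), 389 in limma-voom (83.5% lower), 231 with 1 surrogate variable, 8 on FPKM without a filter and 0 with paired libraries summed. With each library left out it lay between 6 and 214: 65, 24, 72 and 12 without control replicates 1 to 4, and 200, 214, 6, 9, 77 and 35 without knockout replicates 1 to 6. Without knockout replicates 1 and 2 together, an alternative chosen after seeing the data, it was 406. Of the members other than Agmo, 1 passed in DESeq2 and 1 in limma-voom, and none with any library left out. Of the other ether lipid genes, 2 passed in limma-voom and 1 with 1 surrogate variable, and between 0 and 1 with a library left out, the 1 being Dhrs7b without control replicate 6. Of the peroxisome genes, 3 passed in DESeq2, 3 in limma-voom, 3 with 1 surrogate variable, and 0 with DESeq2's size factors in edgeR, on FPKM in all 3 fits and with paired libraries summed, and between 0 and 2 with a library left out. With the mitochondrial share as a covariate 1 other tetrahydrobiopterin-dependent enzyme passed, among 183 of all 16393 genes. The cause of these changes was not tested. The summed fit has fewer samples and also joins the paired libraries, and these cannot be told apart here.

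The log2 fold change of Agmo was between -0.73 and -0.64 with a library left out, and -0.39 on FPKM with a pseudocount of 1, which is close to its level and shrinks the difference by construction. The difference in the Gch1 to Gchfr ratio lay between 0.73 and 1.04 and that in the Agps to Gnpat ratio between 0.08 and 0.26 over 16 alternatives each. The averaging of these ratios within paired libraries was also chosen after seeing the data. Signs turned only for small values. Agps was at 0.033 and Tmem86a at -0.012, with Ch25h at 0.14, without knockout replicates 1 and 2, and Spr at 0.042 with paired libraries summed. Nos2 was at -0.0028 in limma-voom, -0.0021 with 1 surrogate variable, -0.0021 with the mitochondrial share, -0.015 and -0.0022 on FPKM with pseudocounts of 0.1 and 1, -0.015 without a filter and -0.023 with paired libraries summed. With a library left out, Agps lay between -0.074 and 0.026, Nos2 between -0.14 and 0.10 and Ch25h between -0.23 and 0.034. The scalings moved the median of all genes by 0.01 and 0.02.

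Whether the replicate numbers pair the samples is not given. Same-numbered libraries deviated from their group means with correlations of -0.13, 0.02, 0.06, 0.18, 0.06 and 0.46 for replicates 1 to 6. With the replicate block, 236 genes passed, 1 other ether lipid gene, 2 peroxisome genes and none of the members other than Agmo, and Nos2 was at -0.016. Depth limits genes of low count, such as Tph2 with 6 to 32 and Ch25h with 18 to 70 counts per library.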
